A study of Mus musculus with 12 samples.

Results

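CD117+ bone marrow cells were compared with CD117- bone marrow cells across all genes detected on Illumina mouse arrays, with 3 arrays of CD117+ cells and 3 of CD117- cells out of 12 arrays in the series. The 6 arrays were chosen by the cell type written in their labels, which is also the only label that separates them. All cells came from the marrow of β-globin/GFP transgenic mice aged 3 months, and the separation used magnetic beads, so both fractions were mixtures of cells and no CD117+ cell type was isolated on its own. The methods give a separate mouse for each replicate but do not say whether CD117+ and CD117- arrays of equal number share a mouse. The other 6 arrays, used here to estimate the spread and for some levels, were 3 of CD117+ cells whose titles carry the letter U, which no label explains, and 3 of CD117+ cells given stem cell factor (SCF) at 3 µg per ml for 48 hours.

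CD117, the product of Kit, is the receptor tyrosine kinase for SCF. In the marrow it is carried by stem cells and by progenitors of the myeloid, erythroid and megakaryocytic lines, and by mast cells, and it is lost as most of these cells mature. Cells that keep dividing and growing build many ribosomes and nucleotides, while maturing granulocytes fill granules with antimicrobial proteins and display receptors for microbes, antibodies and chemokines. Levels below are log2 normalised intensities, differences are CD117+ minus CD117- on the log2 scale with the standard error (SE) of the limma fit, and a gene is called where its Benjamini-Hochberg adjusted p was under 0.05.

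Kit itself read 11.39, 11.53 and 11.57 on the CD117+ arrays, against 9.58, 8.94 and 9.51 on the CD117- arrays. The groups did not overlap, the difference was 2.16 ± 0.15 (adjusted p = 4.9e-09), and the CD117- arrays still lay far above the dimmest detected signal, which was 4.63 to 4.82 over the 6 arrays. The number of detected probes lay between 17719 and 18248 in CD117+ cells and between 16210 and 17394 in CD117- cells. Correlations between arrays were 0.992 to 0.995 within CD117+, 0.981 to 0.992 within CD117- and 0.905 to 0.923 between the groups.

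Of 11472 genes tested, 51.0% were called. CD117+ cells had higher levels of 3398 genes (29.6%) and lower levels of 2448 genes (21.3%), and the median difference over all genes was 0.07. These 3 shares are the background for every list below. The split into higher and lower depended on the scaling of the arrays: where each array was scaled by its median in place of quantile normalization, 6001 genes were higher and 1024 lower, the higher genes made up 85.4% of calls in place of 58.1%, and the median difference over all genes became 0.49. List medians are therefore given relative to the median of all genes as well, and median scaling turned the larger count of calls in 18 of the 71 lists, each time to higher.

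Calls of any size were more often increases, but the increases were moderate and the largest decreases were far larger. At 2-fold or more, 1054 genes were higher and 1081 lower in CD117+ cells. At 4-fold the counts were 79 higher and 357 lower, at 8-fold 12 and 129, and at 16-fold 0 and 57. Beyond 64-fold 13 genes were lower and 0 were higher.

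**Figure D1:**
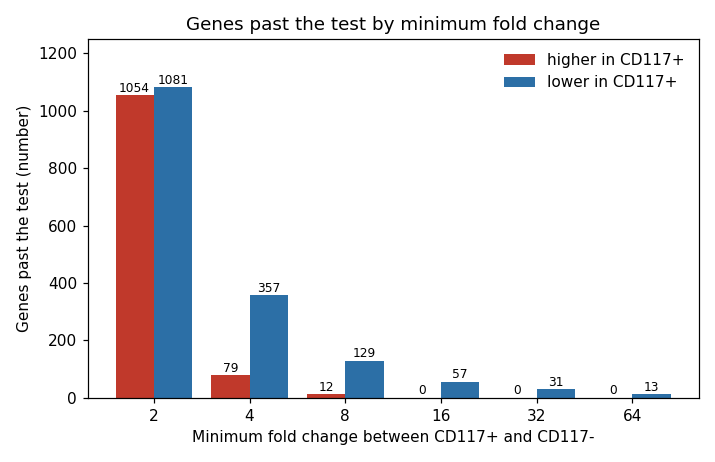
Number of genes past the test (vertical axis) at or above each minimum fold change (horizontal axis), with genes higher in CD117+ cells in red and genes lower in CD117+ cells in blue. The bars are nearly equal at 2-fold (1054 and 1081) and part at 4-fold (79 and 357), and the red bars are at 0 from 16-fold on.

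The 71 textbook gene lists, which held 1933 tested genes, separated by role. Of 575 tested genes for protein and RNA machinery (14 lists), 387 were higher and 23 lower in CD117+ cells, with a median difference of 0.61. Among 421 metabolic genes 179 were higher and 85 lower. The direction was the other for surface receptors, with 34 of 236 higher and 114 lower, and for immune genes, with 30 of 340 higher and 192 lower. Transcription factors and chromatin genes were divided, with 39 of 174 higher and 62 lower.

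**Figure D2:**
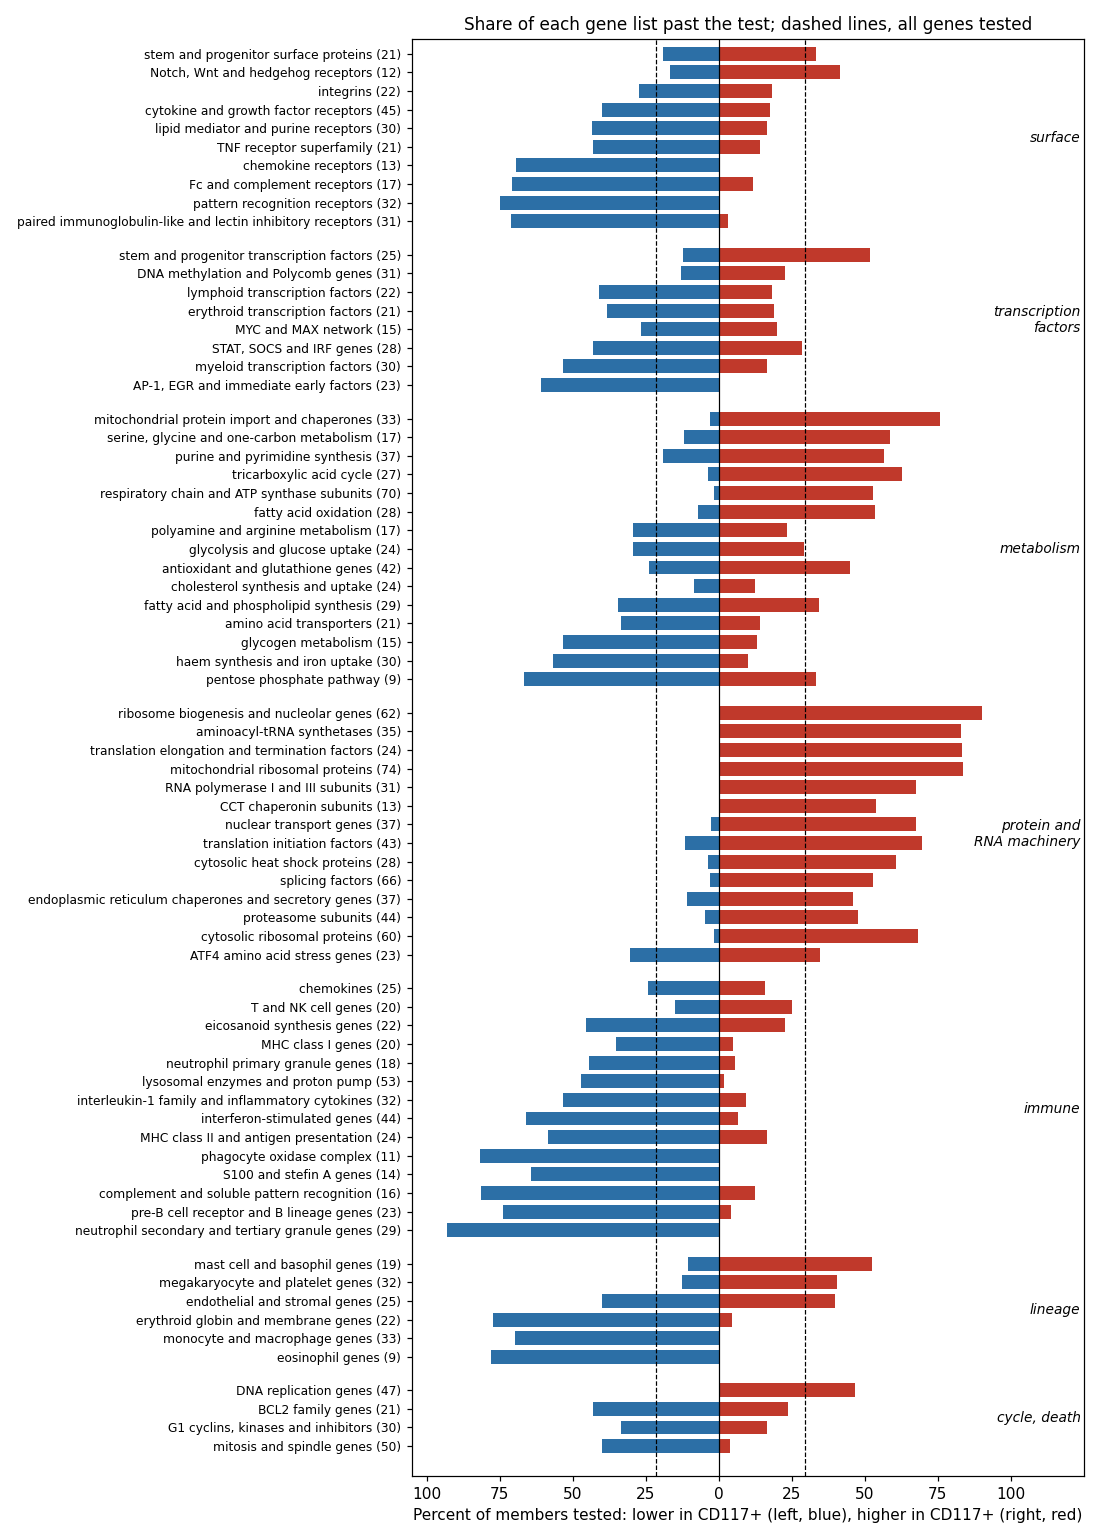
Share of each gene list past the test, in percent of the members tested (their number in brackets), with members higher in CD117+ cells as red bars to the right and members lower in CD117+ cells as blue bars to the left, and lists ordered by median difference within each theme. The dashed lines mark the shares over all genes, 29.6% higher and 21.3% lower, and the red bars of most protein synthesis lists pass the right line while the blue bars of most receptor and immune lists pass the left one.

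Ribosome biogenesis was the list raised most widely. Its genes encode nucleolar proteins that cut, modify and fold ribosomal RNA. Of 62 genes tested, 56 were higher and 0 lower in CD117+ cells, 42 of them by 2-fold or more, and the median difference was 1.21, which is 1.13 above that of all genes. Nat10, an RNA acetyltransferase that modifies 18S rRNA, read 6.94, 6.98 and 6.83 in CD117+ cells, against 4.90, 4.83 and 4.51 in CD117- cells (difference 2.17 ± 0.20, adjusted p = 1.1e-07). Its CD117- arrays lay at the edge of detection. Nop2, an rRNA methyltransferase of the large subunit, read 8.85, 8.93 and 8.81 in CD117+ cells, against 6.87, 6.42 and 7.00 in CD117- cells (2.10 ± 0.17, adjusted p = 2.6e-08). Rrp12, which takes part in the processing and export of both subunits, read 9.91, 10.01 and 9.85, against 7.97, 7.78 and 7.72 in CD117- cells (2.10 ± 0.14, adjusted p = 1.7e-09). The arrays of the fractions did not overlap for any of the 3 genes. The bright and well-known nucleolar genes moved less: Gnl3 (nucleostemin) differed by 1.95 ± 0.12, Ncl (nucleolin) by 1.33 ± 0.14 and Npm1 (nucleophosmin) by 1.05 ± 0.17.

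RefSeq promoter sequences (GRCm38.p6, 250 bases before to 50 after each start) were found for 53 of the 62 genes, with 55 promoters in all. The E-box CACGTG, the same on both strands and the letters read by MYC and MAX among other factors, stood in 11 of these (20.0%), against 7.15% of all 32851 promoters and 9.78% of the 11652 promoters of genes tested here. The share was 11.8% among genes called higher and 8.73% among genes called lower. Some lists with more lower than higher calls held the E-box more often still. It stood in 14 of 50 promoters of lysosomal genes (28.0%) and in 10 of 40 of myeloid transcription factors. The lysosomal list, with 1 gene higher and 25 lower, turned to 14 higher and 6 lower under median scaling. Other lists with more lower calls held no E-box, among them interferon-stimulated genes (0 of 41 promoters). A high share was thus not particular to the ribosome biogenesis list. Among the most raised members of this list with an E-box before the start, 3 are shown. The sequences cover 80 bases upstream of the start, 5′ to 3′ on the strand of the gene, with the E-box in capitals: Nop2 (chr6:125131786-125131865, plus strand), Rrn3 (chr16:13780614-13780693, plus strand) and Imp4 (chr1:34439671-34439750, plus strand).
Nop2: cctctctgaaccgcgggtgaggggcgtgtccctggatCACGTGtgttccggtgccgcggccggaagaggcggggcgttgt
Rrn3: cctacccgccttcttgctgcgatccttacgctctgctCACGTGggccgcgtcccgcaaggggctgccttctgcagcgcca
Imp4: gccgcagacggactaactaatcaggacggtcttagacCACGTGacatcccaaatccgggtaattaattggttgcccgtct
The E-box began 60 bases before the start in Nop2, 48 in Rrn3, whose promoter held 2, and 121 in Imp4. Rrn3, the factor that brings RNA polymerase I to the rDNA promoter, read 6.66, 6.57 and 6.74 in CD117+ cells, against 5.14, 5.49 and 5.72 in CD117- cells (difference 1.21 ± 0.21). Imp4, a protein of the small-subunit processome, read 10.77, 10.71 and 10.83, against 9.78, 9.86 and 9.76 in CD117- cells (0.97 ± 0.11). A match of these letters is a description of the sequence, and binding was not measured.

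Other lists for making ribosomes and protein were raised together with ribosome biogenesis. Subunits of RNA polymerases I and III, which transcribe rRNA, 5S rRNA and tRNA, were higher for 21 of 31 genes and lower for 0, led by Polr1b, the second largest subunit of polymerase I (8.55, 8.63 and 8.43 in CD117+ cells, against 6.76, 6.64 and 6.35 in CD117- cells). Mitochondrial ribosomal proteins were higher for 62 of 74 genes and lower for 0, with a median of 0.78. Cytosolic ribosomal proteins were higher for 41 of 60, with a smaller median of 0.36. The member that fell was Rpl3l, a paralog of Rpl3 known from striated muscle, which read 4.58, 4.83 and 4.82 in CD117+ cells, against 7.95, 7.89 and 7.70 in CD117- cells (difference -3.10 ± 0.26). Rpl7a, a protein of the large subunit, was the most raised cytosolic one (1.36 ± 0.12). Cytosolic ribosomal protein genes have many near-identical copies in the genome, which bead probes may not tell apart.

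Translation factors and tRNA synthetases also rose. Of 43 initiation factor genes 30 were higher and 5 lower, of 24 elongation and termination factors 20 were higher and 0 lower, and of 35 aminoacyl-tRNA synthetases, which charge tRNAs with amino acids, 29 were higher and 0 lower, with a median of 1.00. Eif1a, a scanning factor, read 9.84, 9.90 and 10.15 in CD117+ cells, against 8.45, 8.16 and 8.81 in CD117- cells. The fractions differed by 1.49 ± 0.16 (adjusted p = 6.4e-07). Among the 5 lower initiation genes were the eIF2α kinases Eif2ak1 (-0.97 ± 0.16), the haem-regulated inhibitor of translation, and Eif2ak3 (-0.65 ± 0.14), the kinase of the endoplasmic reticulum stress response, and the cap-binding paralog Eif4e3 (-0.81 ± 0.14), and all 3 of these calls were lost under median scaling. Eef1e1, an accessory protein of the synthetase complex, read 9.28, 9.36 and 9.46, against 7.92, 7.51 and 7.71 in CD117- cells (1.65 ± 0.14). Among the synthetases the brightest probe of Vars, which charges valine tRNA, differed by 2.62 ± 0.20, but neither of its other 2 detected probes was called (-0.15 and 0.61). Vars2, the mitochondrial valine enzyme, differed by 1.46 ± 0.18.

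Chaperones that fold new proteins were higher as well. Of 13 genes of the CCT chaperonin, which folds actin and tubulin, 7 were higher and 0 lower, led by Cct3 at 11.82, 11.90 and 11.85 in CD117+ cells, against 10.36, 10.25 and 10.35 in CD117- cells. Cytosolic heat shock proteins were higher for 17 of 28 and lower for 1, and endoplasmic reticulum chaperones and secretory genes for 17 of 37 and lower for 4. Dnajc2, a chaperone bound to the ribosome, led the cytosolic list (1.67 ± 0.17) and Dnajc3, an inhibitor of eIF2α kinases in the endoplasmic reticulum, the secretory list (1.46 ± 0.22).

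Proteasome genes were higher for 21 of 44 and lower for 2, with a median of 0.36, and 1 of them stood far outside the list. Psmb1, a subunit of the core particle, read 11.58, 11.58 and 11.57 in CD117+ cells, against 8.44, 7.57 and 7.78 in CD117- cells. The difference of 3.64 ± 0.17 (12.5-fold, adjusted p = 2.0e-11) was the largest increase of any gene tested and came from a single detected probe. The next members were the assembly chaperones Psmg1 (1.51 ± 0.13) and Psmg2 (1.14 ± 0.15).

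Splicing factors were higher for 35 of 66 and lower for 2, and nuclear transport genes for 25 of 37 and lower for 1. Nup107, a scaffold nucleoporin, read 8.96, 8.84 and 8.86 in CD117+ cells, against 7.10, 6.82 and 6.82 in CD117- cells (1.97 ± 0.16). Ipo4, an importin, differed by 1.73 ± 0.20 and Xpot, the exporter of tRNA, by 1.31 ± 0.16. The exception was Xpo7, an exportin that is abundant in maturing erythroid cells, at 5.77, 5.61 and 5.51 in CD117+ cells, against 8.30, 8.96 and 9.10 in CD117- cells. It fell by 3.16 ± 0.22 on the log2 scale (adjusted p = 4.9e-09).

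Enzymes that make nucleotides and supply one-carbon units were mostly higher. Of 37 purine and pyrimidine genes 21 were higher and 7 lower, 13 of the higher ones by 2-fold or more, and of 17 genes of serine, glycine and one-carbon metabolism 10 were higher and 2 lower. Cad, the enzyme of the first steps of pyrimidine synthesis, read 9.42, 9.47 and 8.77 in CD117+ cells, against 6.81, 6.37 and 6.41 in CD117- cells (2.69 ± 0.23, adjusted p = 5.6e-08). Adsl, adenylosuccinate lyase of purine synthesis, read 9.73, 9.55 and 9.35, against 7.45, 7.28 and 6.99 in CD117- cells (2.30 ± 0.22). The fractions did not overlap for either gene. Mthfd1, the cytosolic folate enzyme, read 11.07, 11.12 and 11.02 in CD117+ cells, against 8.84, 8.33 and 8.57 in CD117- cells (2.49 ± 0.13, adjusted p = 1.7e-10). Of the same list Slc19a1, the reduced folate carrier, differed by 2.18 ± 0.17 and Fpgs, which adds the glutamate tail that keeps folate in the cell, by 2.27 ± 0.17, while the folate enzymes Mthfs (-1.37 ± 0.21) and Mthfd2 (-0.47 ± 0.12) were lower, Mthfd2 turning to 0.23 under median scaling. The nucleotide genes that fell were led by Cmpk2, a mitochondrial kinase induced by interferon (-1.49 ± 0.17), and Rrm2b, a p53-regulated ribonucleotide reductase subunit (-1.39 ± 0.19).

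Mitochondrial genes were raised broadly and by small amounts. Of 70 subunits of the respiratory chain and ATP synthase 37 were higher and 1 lower (median 0.43), of 27 genes of the tricarboxylic acid cycle 17 were higher and 1 lower (0.63), and of 28 genes of fatty acid oxidation 15 were higher and 2 lower (0.40). Protein import and mitochondrial chaperones moved most, with 25 of 33 higher and 1 lower (0.98). Hspd1, the chaperonin HSP60, read 11.04, 11.23 and 11.27 in CD117+ cells, against 9.40, 9.03 and 9.29 in CD117- cells, although its second, dimmer probe (difference 0.76) was not called. Hspe1, its partner HSP10, differed by 1.80 ± 0.21. Suclg2, a subunit of succinyl-CoA ligase, read 9.30, 9.27 and 9.56, against 7.64, 7.53 and 7.80 in CD117- cells (1.72 ± 0.14). Pdk1, the kinase that holds back pyruvate dehydrogenase, was the most raised gene of the cycle list (1.81 ± 0.15). The respiratory subunit that fell was Cox6a2, an isoform known from heart and muscle, which read 7.26, 7.22 and 7.08 in CD117+ cells, against 9.21, 9.42 and 9.37 in CD117- cells.

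Carbohydrate genes did not share a direction. Glycolysis and glucose uptake had 7 of 24 genes higher and 7 lower. Pklr, the pyruvate kinase of liver and red cells, read 7.78, 7.22 and 7.53 in CD117+ cells, against 4.61, 5.53 and 5.67 in CD117- cells (2.24 ± 0.22). Pfkfb4, which sets the level of an activator of glycolysis, fell by 2.57 ± 0.18 on the log2 scale, at 8.04, 8.18 and 7.90 in CD117+ cells, against 10.65, 10.84 and 10.33 in CD117- cells. In glycogen metabolism 2 of 15 genes were higher and 8 lower, and in the pentose phosphate pathway 3 of 9 were higher and 6 lower, but both larger counts turned under median scaling, to 6 higher and 5 lower and to 3 higher and 2 lower. Pygl, glycogen phosphorylase, read 9.97, 10.23 and 9.95 in CD117+ cells, against 12.63, 12.55 and 12.71 in CD117- cells (-2.58 ± 0.14, adjusted p = 2.5e-10). Ppp1r3d, a glycogen-targeting phosphatase subunit, differed by -2.19 ± 0.14, and Pgd, an NADPH-producing enzyme of the pentose pathway, by -1.21 ± 0.12.

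Lipid genes were divided as well. Fatty acid and phospholipid synthesis had 10 of 29 genes higher and 10 lower, and cholesterol synthesis and uptake 3 of 24 higher and 2 lower. Dgat2, which makes the last step to triglyceride, read 6.33, 6.57 and 5.86 in CD117+ cells, against 9.40, 9.45 and 9.60 in CD117- cells (-3.23 ± 0.20, adjusted p = 7.4e-10). Agpat2, an acyltransferase of an earlier step, and Lpcat2, which makes platelet-activating factor, also fell, by 2.10 ± 0.19 and 2.24 ± 0.19 on the log2 scale. Fads2, a fatty acid desaturase, rose by 1.60 ± 0.22.

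Polyamine, amino acid and redox genes included large changes in both directions, and 2 of these lists turned under median scaling, polyamine and arginine metabolism (4 higher and 5 lower, then 7 and 2) and amino acid transporters (3 and 7, then 4 and 2). Srm, spermidine synthase, read 11.76, 11.62 and 11.46 in CD117+ cells, against 9.51, 9.30 and 9.26 in CD117- cells (2.26 ± 0.17), while Smox, spermine oxidase, which runs the pathway back, read 9.04, 9.12 and 8.93, against 11.57, 11.66 and 11.67 in CD117- cells (-2.60 ± 0.15). The synthetic and the oxidising enzyme thus lay on opposite sides. Slc6a9, the glycine transporter GlyT1, read 7.18, 7.19 and 6.81 in CD117+ cells, against 10.88, 10.78 and 10.52 in CD117- cells (-3.66 ± 0.17, adjusted p = 2.7e-11). Among stress genes that respond to ATF4, 8 of 23 were higher and 7 lower: Aldh18a1, the first enzyme of proline synthesis, rose by 2.24 ± 0.20, Asns, asparagine synthetase, by 1.32 ± 0.13, and Ppp1r15a, a phosphatase subunit that restores translation, fell by 2.49 ± 0.15 on the log2 scale. Antioxidant and glutathione genes had 19 of 42 higher and 10 lower, led by Gsto1 (1.34 ± 0.11) among the higher and the microsomal transferase Mgst1 (-2.77 ± 0.12) among the lower.

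Haem and iron genes were mostly lower, with 3 of 30 higher and 17 lower, which became 11 higher and 8 lower under median scaling. Slc25a37, mitoferrin, which carries iron into mitochondria, read 9.46, 9.41 and 9.19 in CD117+ cells, against 12.79, 12.72 and 12.72 in CD117- cells (-3.39 ± 0.15). Tfr2, a transferrin receptor of erythroid progenitors and liver, went the other way, at 9.63, 9.52 and 9.44 in CD117+ cells, against 7.22, 6.48 and 6.96 in CD117- cells (2.64 ± 0.21). Cpox, an enzyme of haem synthesis, was also higher (1.06 ± 0.22). Erythroid markers, given below, were lower as well, their part in this list was not tested, and in bulk samples fewer cells of a type and less RNA per cell cannot be told apart.

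**Figure D3:**
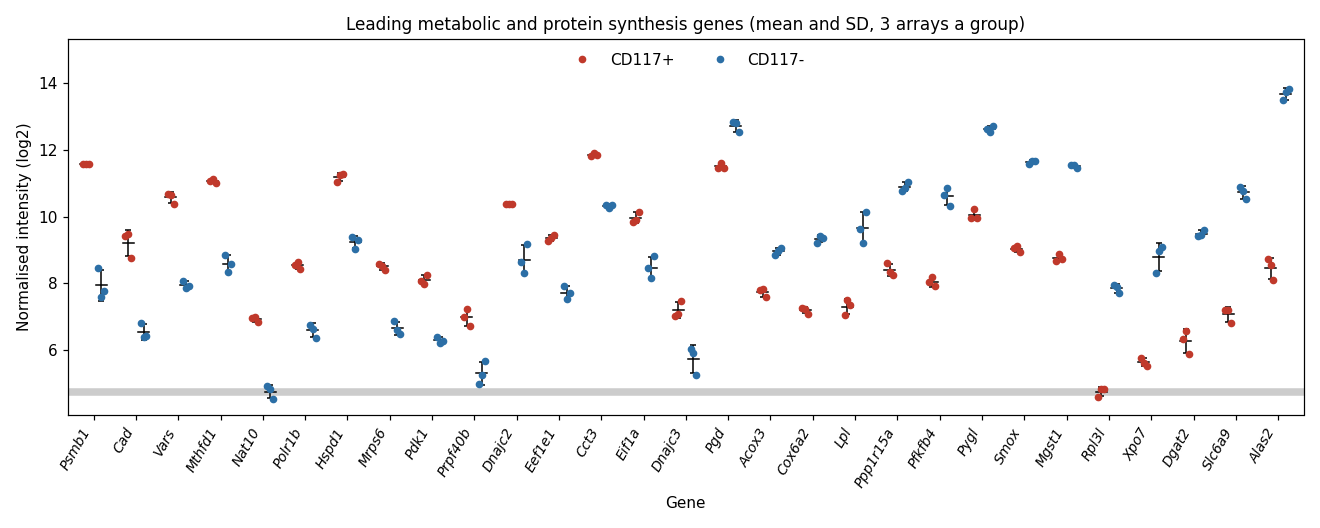
Normalised intensity (log2, vertical axis) on each of 3 CD117+ arrays (red, left of each pair) and 3 CD117- arrays (blue, right), with the mean and SD as black lines, for the most changed called gene of each metabolic and protein synthesis list. The grey band marks the dimmest detected signals, and of the 29 genes 15 are higher in CD117+ cells, from Psmb1 at the left, and 14 are lower, to Alas2, the erythroid enzyme that starts haem synthesis, at the right.

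Several lists of leukocyte surface receptors were mostly lower in CD117+ cells. Of 32 pattern recognition receptors 24 were lower and 0 higher (median -1.56), of 31 paired immunoglobulin-like and lectin receptors 22 were lower and 1 higher (-2.15), of 17 Fc and complement receptors 12 were lower and 2 higher (-1.34), and of 13 chemokine receptors 9 were lower and 0 higher (-0.57). Cxcr2, the receptor for neutrophil chemokines, read 5.35, 5.20 and 4.96 in CD117+ cells, against 9.18, 9.11 and 9.65 in CD117- cells (-4.14 ± 0.20, 17.7-fold lower, adjusted p = 3.8e-11). Pilra, an inhibitory receptor of myeloid cells, read 5.43, 5.40 and 5.08, against 10.02, 10.14 and 10.17 in CD117- cells (-4.81 ± 0.22), and Cd33, a sialic acid-binding inhibitory receptor, 4.94, 5.40 and 4.76, against 9.21, 9.41 and 9.92 (-4.48 ± 0.20). On the CD117+ arrays all 3 genes lay near the dimmest detected signals. Nlrp12, an intracellular sensor of myeloid cells, was above background on 0 of 3 CD117+ arrays and was at least 8.43-fold lower there, and Tlr13, the sensor of bacterial rRNA, fell by 3.43 ± 0.32 on the log2 scale. Fcgr4, an activating receptor for IgG, read 6.39, 6.61 and 6.33 in CD117+ cells, against 10.69, 10.67 and 10.56 in CD117- cells.

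Stem and progenitor surface proteins stood near the background, with 7 of 21 higher and 4 lower. The 7 include Kit, by whose product the fractions were separated. Among the lower ones were the tetraspanins Cd63 (-0.94 ± 0.12) and Cd9 (-0.75 ± 0.13, a call lost under median scaling), and Prom1, the stem cell surface protein CD133 (-2.23 ± 0.19), whose second, dim probe was not called (-0.11). Of the higher ones, Eng (endoglin, a TGF-β co-receptor) read 8.90, 8.92 and 8.70 in CD117+ cells, against 7.17, 6.45 and 6.96 in CD117- cells (1.98 ± 0.20), and Cd34, the adhesion protein of progenitors, 7.01, 7.00 and 7.00, against 5.70, 5.49 and 5.25 (1.52 ± 0.17). Cd27, a TNF receptor family member that is a progenitor and lymphocyte marker, was higher by 1.81 ± 0.15 and Tnfrsf17, the plasma cell receptor BCMA, by 1.86 ± 0.16. Most called members of that family were lower, however, with 3 of 21 higher and 9 lower, or 5 and 5 under median scaling. The falls were led by Cd40 (-2.97 ± 0.24, with 1 other probe not called) and Fas (-2.64 ± 0.16). Of 12 Notch, Wnt and hedgehog receptors 5 were higher and 2 lower. Smo, the signalling receptor of the hedgehog pathway, read 8.76, 8.68 and 8.73 in CD117+ cells, against 6.23, 5.88 and 6.04 in CD117- cells (2.67 ± 0.16, adjusted p = 6.0e-10), and Ptch1, the hedgehog receptor that holds Smo in check, differed by 1.18 ± 0.16. Both hedgehog receptors were higher, whereas Notch1 was lower (-1.30 ± 0.26). Among cytokine and growth factor receptors 8 of 45 were higher and 18 lower, turning to 12 higher and 5 lower under median scaling. Tgfbr3, a TGF-β co-receptor, was higher by 1.84 ± 0.20, and Csf3r, the receptor for granulocyte colony-stimulating factor, lower (-2.46 ± 0.18), at 7.37, 7.62 and 7.39 in CD117+ cells, against 9.88, 9.63 and 10.26 in CD117- cells.

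Integrins, the adhesion receptors, changed in both directions. Itgam and Itgb2, the chains of the complement receptor CR3, were lower, Itgam at least 6.89-fold and Itgb2 at 4.84, 4.98 and 5.38 in CD117+ cells, against 7.11, 7.04 and 6.88 in CD117- cells. Itgb2l, a paralog of Itgb2, was at least 25.9-fold lower and above background on none of the CD117+ arrays. Itga5, a fibronectin receptor chain, read 7.97, 8.06 and 7.82 in CD117+ cells, against 5.78, 5.65 and 6.90 in CD117- cells (1.84 ± 0.26). Over the 22 integrins 4 were higher and 6 lower, turning to 8 higher and 5 lower under median scaling. Receptors for lipid mediators and purines had 5 of 30 higher and 13 lower, led by Gpr84, a receptor for medium-chain fatty acids (-3.97 ± 0.21), and Ffar2, a receptor for short-chain fatty acids (-3.54 ± 0.15).

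Transcription factors of stem and progenitor cells were higher for 13 of 25 genes and lower for 3, and under median scaling for 18 and 0. Meis1, a homeobox partner of Hox proteins, read 8.97, 8.92 and 9.08 in CD117+ cells, against 7.28, 6.32 and 7.29 in CD117- cells (2.03 ± 0.22, adjusted p = 7.1e-07). Hoxa5, another homeobox factor, read 6.31, 6.38 and 6.39, against 4.99, 5.08 and 5.04 (1.32 ± 0.18). Gata2, the zinc finger factor of stem and mast cells, read 10.94, 11.03 and 11.02 in CD117+ cells, against 8.01, 7.31 and 7.88 in CD117- cells (3.26 ± 0.17), the largest increase among transcription factors listed. All 3 genes were tight across the CD117+ arrays.

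Factors of myeloid maturation were lower for 16 of 30 genes and higher for 5. Bcl6, a repressor of germinal centre cells that is also present in neutrophils, read 6.37, 6.58 and 6.16 in CD117+ cells, against 9.41, 9.53 and 10.00 in CD117- cells (-3.28 ± 0.18, adjusted p = 1.8e-10). Cebpe, needed for secondary granules, read 9.24, 9.16 and 8.67, against 11.68, 11.84 and 11.57 in CD117- cells (-2.67 ± 0.14). Klf2, a factor of quiescent leukocytes, fell by 2.84 ± 0.22 on the log2 scale. Of 23 AP-1, EGR and other immediate early genes 14 were lower and 0 higher, among them the phosphatase Dusp1, which shuts off MAP kinases, at 7.41, 7.26 and 7.57 in CD117+ cells, against 10.29, 10.30 and 10.02 in CD117- cells. Spib, an ETS factor of B and plasmacytoid dendritic cells, read 4.66, 4.74 and 4.74, against 7.87, 8.35 and 7.58 (-3.22 ± 0.20).

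Of the MYC and MAX network, Myc, which drives growth genes, read 7.94, 7.57 and 7.70 in CD117+ cells, against 5.75, 6.04 and 5.88 in CD117- cells (1.85 ± 0.27, adjusted p = 2.8e-05). Its ATPase cofactors Ruvbl1 and Ruvbl2 differed by 1.57 ± 0.17 and 1.64 ± 0.14. Mxd1, which binds MAX in place of MYC and represses, read 6.90, 7.00 and 6.77, against 10.38, 10.18 and 9.81 in CD117- cells (-3.23 ± 0.17), and Mxd3 of the same family differed by -1.70 ± 0.23. Over the 15 genes of the list 3 were higher (20.0%) and 4 lower (26.7%), not far from the background, or 6 higher and 2 lower under median scaling. Stat5a, a signal transducer of cytokine receptors, was higher, at 9.93, 9.88 and 9.75 in CD117+ cells, against 8.37, 8.14 and 8.28 in CD117- cells (8 of 28 genes of its list were higher and 12 lower, or 12 and 4 under median scaling), while Socs3, a cytokine feedback inhibitor, and Irf7, of the interferon response, were lower (-1.30 ± 0.23 and -1.58 ± 0.19). Among DNA methylation and Polycomb genes 7 of 31 were higher (22.6%) and 4 lower (12.9%), both shares below those of all genes. The higher ones were led by Pcgf6 (1.92 ± 0.16) and Ring1 (1.57 ± 0.17), subunits of Polycomb repressive complex 1, and Dnmt3b, a de novo DNA methyltransferase (1.42 ± 0.13). The lower ones were led by Dnmt3l (-1.76, with its second probe at -1.61).

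**Figure D4:**
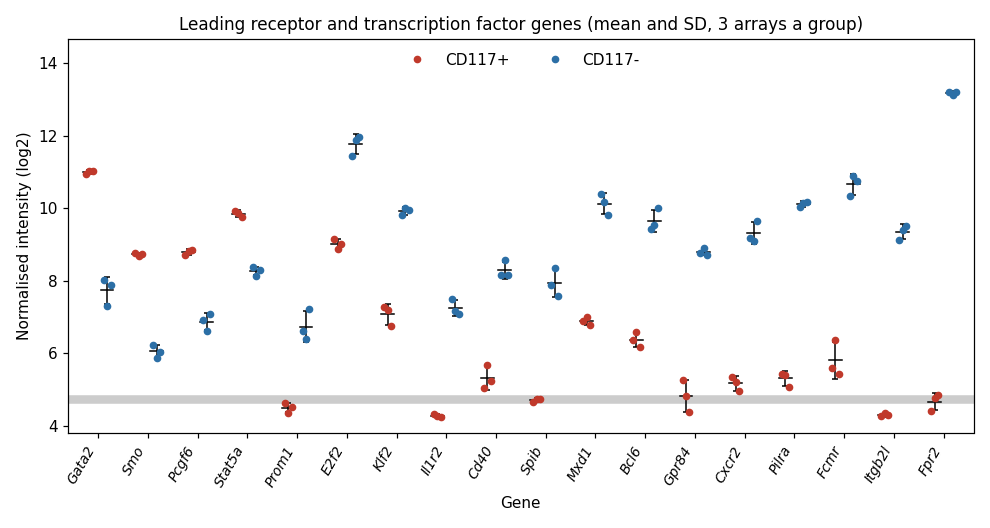
Normalised intensity (log2, vertical axis) on each of 3 CD117+ arrays (red, left of each pair) and 3 CD117- arrays (blue, right), with the mean and SD as black lines, for the most changed called gene of each receptor and transcription factor list. Of the 18 genes 4 are higher in CD117+ cells (Gata2, Smo, Pcgf6 and Stat5a) and 14 lower, many with the CD117+ arrays near the grey band of dimmest detected signals.

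Genes of neutrophil granules showed the largest differences of all, and late and early granules differed in their counts. Of 29 genes listed for secondary and tertiary granules, which fill late in maturation, 27 were lower in CD117+ cells and 0 higher (median -3.16). Of 18 genes listed for primary granules, which fill early, 8 were lower and 1 higher (median -0.32), and this count turned to 6 higher and 5 lower under median scaling. Mmp9, a gelatinase of tertiary granules, read 4.92, 5.15 and 5.09 in CD117+ cells, against 12.17, 12.18 and 11.76 in CD117- cells (-6.98 ± 0.20, 126-fold lower, adjusted p = 9.2e-14). Lcn2, a protein that binds bacterial siderophores, read 6.89, 6.96 and 6.61, against 14.12, 14.13 and 14.10 (-7.30 ± 0.11). The primary granule list was not confined to granule proteins. Its most lowered members were Serpinb1a, an inhibitor of neutrophil proteases (-2.51 ± 0.21), Clec5a, a lectin receptor (-2.48 ± 0.18), and Lyz2, lysozyme (-1.90 ± 0.14, with 1 of its 2 other probes not called). Mpo and Elane, chosen after their values were seen, did not follow them: Mpo, myeloperoxidase, read 13.76, 13.90 and 13.97 in CD117+ cells, against 13.96, 13.86 and 13.89 in CD117- cells, and Elane, neutrophil elastase, 13.32, 13.42 and 13.16, against 13.33, 13.28 and 13.65, with overlapping arrays and no call for either. Of the 3 other Mpo probes 2 were called higher (0.66 and 0.46). Ctsg, cathepsin G, was the primary granule gene that rose (0.48 ± 0.12).

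Promoters were found for 23 of the 29 late granule genes. The letters TTGCNNAA, a core of sites read by C/EBP factors, or their reverse complement, stood in 9 of 23 (39.1%), against 10.8% of all promoters and 8.82% of those of genes tested. In the promoters of the phagocyte oxidase list it stood in 4 of 12 (33.3%). Among the most lowered late granule genes with such a match before the start, 3 are shown in the same way, with the match in capitals: Ltf (lactoferrin, chr9:111019181-111019260, plus strand), Lcn2 (chr2:32387910-32387989, minus strand) and Ngp (neutrophilic granule protein, chr9:110419728-110419807, plus strand).
Ltf: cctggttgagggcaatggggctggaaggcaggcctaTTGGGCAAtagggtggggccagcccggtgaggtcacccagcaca
Lcn2: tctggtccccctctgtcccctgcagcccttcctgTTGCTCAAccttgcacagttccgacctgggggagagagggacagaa
Ngp: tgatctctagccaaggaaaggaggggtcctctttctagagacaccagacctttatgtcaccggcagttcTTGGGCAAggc
The match began 75 bases before the start in Ltf, 216 in Lcn2 and 11 in Ngp, whose promoter held 2. Ltf read 5.75, 6.61 and 5.56 in CD117+ cells, against 14.14, 14.16 and 14.08 in CD117- cells, and Ngp 7.32, 8.14 and 6.99, against 13.97, 13.95 and 13.73. The CD117+ arrays of both genes spread more widely than the CD117- arrays, with replicate 2 the highest of the 3. The E-box stood in 3 of the same 23 promoters.

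Other innate genes followed the late granules. Stefin A and S100 genes were lower for 9 of 14 and higher for 0, and among them Stfa2, a cysteine protease inhibitor, was at least 51.0-fold lower. S100a9, a subunit of calprotectin, read 8.60, 8.90 and 7.66 in CD117+ cells, against 13.66, 13.51 and 13.33 in CD117- cells. Stefin A genes are near-identical copies whose probes may read each other. Of 11 genes of the phagocyte oxidase complex 9 were lower and 0 higher, with Ncf4 at 10.39, 10.55 and 10.14 in CD117+ cells, against 12.46, 12.46 and 12.52 in CD117- cells (-2.12 ± 0.12). Complement and soluble recognition genes were lower for 13 of 16 and higher for 2. Fcnb, ficolin B, read 7.72, 8.25 and 7.35, against 12.07, 11.82 and 12.46 in CD117- cells (-4.34 ± 0.23), while Masp2, a complement protease that ficolins carry, was higher (1.59 ± 0.12).

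Cytokine and interferon genes were also mostly lower. Among genes of the interleukin-1 family and inflammatory cytokines 17 of 32 were lower and 3 higher. Il1b, the inflammatory cytokine interleukin-1β, read 5.41, 5.03 and 5.42 in CD117+ cells, against 9.81, 9.45 and 9.54 in CD117- cells (-4.32 ± 0.18), and Tnfsf13b, the B cell survival factor BAFF, 5.10, 5.08 and 4.71, against 10.49, 10.49 and 10.47 (-5.52 ± 0.18, 45.8-fold lower, adjusted p = 3.9e-13). Of 44 interferon-stimulated genes 29 were lower and 3 higher. Rsad2 (viperin), which blocks virus replication, read 5.91, 6.55 and 6.49 in CD117+ cells, against 12.42, 12.65 and 12.86 in CD117- cells. The 3 higher genes were Irgm1 (0.81, with a second probe not called at 0.14), Gbp3 (0.73) and Ifitm2, which blocks viral entry (0.33 ± 0.11). The 2 largest falls after Rsad2, Ifitm6 (-5.15 ± 0.24) and Slfn1 (-5.05 ± 0.21), were much larger than that of Irf7. Chemokine genes were divided, with 4 of 25 higher and 6 lower, or 6 higher and 4 lower under median scaling. Ccl3, a macrophage inflammatory protein, read 9.22, 8.87 and 9.31 in CD117+ cells, against 7.05, 6.63 and 5.88 in CD117- cells (2.62 ± 0.28), and Ccl6 was lower (-2.27 ± 0.24).

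Of 24 genes of MHC class II presentation and dendritic cells 14 were lower and 4 higher. H2-Eb1, a class II chain, read 7.93, 7.52 and 7.25 in CD117+ cells, against 10.31, 10.82 and 10.42 in CD117- cells (-2.95 ± 0.21). Zbtb46 and Clec9a, a factor and a receptor of classical dendritic cells, were higher, Zbtb46 at 6.66, 6.46 and 6.57, against 4.83, 4.76 and 4.87 in CD117- cells (1.74 ± 0.13), and Clec9a by 1.36 ± 0.16. Of 23 genes of the B lineage 17 were lower and 1 higher. Igll1, the surrogate light chain of pre-B cells, read 6.08, 6.46 and 6.01 in CD117+ cells, against 10.50, 11.26 and 10.64 in CD117- cells (-4.62 ± 0.20). The T and NK cell list stood near the background, with 5 of 20 genes higher and 3 lower and a median of -0.05. Thy1, a T cell surface protein also found on stem cells, was higher by 0.68 ± 0.20, and the largest change was the fall of Cd3d, a chain of the T cell receptor complex, at 6.69, 6.81 and 6.82, against 10.89, 10.98 and 10.63 (-4.06 ± 0.19).

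**Figure D5:**
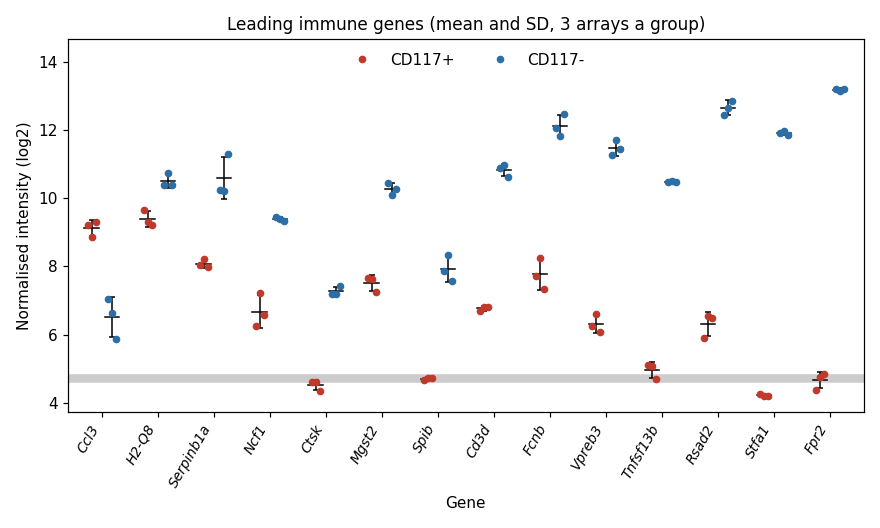
Normalised intensity (log2, vertical axis) on each of 3 CD117+ arrays (red, left of each pair) and 3 CD117- arrays (blue, right), with the mean and SD as black lines, for the most changed called gene of each immune list. Ccl3 is the gene of the 14 that is higher in CD117+ cells, and Fpr2 at the right, a formyl peptide receptor of neutrophils, differs most, with its CD117+ arrays within the grey band or next to it.

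Markers of mast cells and basophils were higher in the CD117+ fraction, for 10 of 19 genes against 2 lower, and 9 and 1 under median scaling, where the list median fell to 0.10 below that of all genes. The 10 include Kit, by whose product the fractions were separated, so its rise was set by the design. Cpa3, carboxypeptidase A of mast cells, read 10.76, 10.82 and 10.84 in CD117+ cells, against 8.25, 7.79 and 8.07 in CD117- cells (2.77 ± 0.15), Prss34, a basophil protease, 13.47, 13.39 and 13.37, against 10.87, 10.60 and 10.49 (2.76 ± 0.14), and Cd200r3, an activating receptor of both, 7.42, 7.49 and 7.61, against 5.10, 4.75 and 4.68 (2.66 ± 0.17). Alox5, which starts leukotriene synthesis and is shared with neutrophils, was lower (-1.90 ± 0.17). The other lower member was Hdc (-0.87, with its second probe also lower at -0.98). The mast cell tryptase Tpsab1 and chymase Cma1 were above background on 0 of 3 CD117- arrays, and neither was called. GATA letters (AGATAA on either strand) stood in 7 of 22 promoters of 18 of the genes (31.8%). Fcer1a, the chain of the IgE receptor that binds the antibody, Cpa3 and Prss34 are shown over 80 bases as the 3 most raised members with a match, in capitals: Fcer1a (chr1:173227279-173227358, minus strand), Cpa3 (chr3:20242185-20242264, minus strand) and Prss34 (chr17:25298314-25298393, plus strand).
Fcer1a: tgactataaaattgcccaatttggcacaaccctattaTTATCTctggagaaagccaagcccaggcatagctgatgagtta
Cpa3: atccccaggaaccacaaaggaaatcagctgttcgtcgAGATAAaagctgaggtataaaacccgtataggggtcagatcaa
Prss34: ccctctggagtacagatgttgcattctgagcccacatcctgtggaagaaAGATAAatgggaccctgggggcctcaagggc
The match began 92 bases before the start in Fcer1a, 46 in Cpa3 and 31 in Prss34. Over all promoters 11.2% held these letters, and over those of genes tested 6.7%, and the late granule promoters held them as often as the mast cell ones (7 of 23, 30.4%), as did those of chemokine receptors (5 of 14, 35.7%).

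Other lineages differed in total as well as gene by gene. The summed normalised intensity of the 29 late granule genes lay between 8737 and 11839 in CD117+ cells and between 133090 and 141890 in CD117- cells, with 8 of the genes above background on no CD117+ array, among them Chil1, Mmp8, Itgam and Orm1. The 22 erythroid globin and membrane genes, of which 17 were lower and 1 higher, summed to 57997 to 66247 in CD117+ and 104125 to 108469 in CD117- cells. The member that rose was Car1, carbonic anhydrase, at 13.20, 13.06 and 13.27 in CD117+ cells, against 11.40, 11.13 and 11.46 in CD117- cells (1.85 ± 0.14), and the largest falls were Hbb-b2, an adult β-globin with a near-identical neighbour (-4.50 ± 0.26), and Tmod1, a cap of the membrane skeleton (-4.41 ± 0.20). The 19 mast cell and basophil genes, Kit among them, summed to 24760 to 25512 in CD117+ and 11286 to 12480 in CD117- cells. The 23 B lineage genes summed to 21905 to 23127 and 34472 to 40199, the 33 monocyte and macrophage genes, 23 of them lower and 0 higher, to 14285 to 17533 and 25526 to 31848, and the 9 eosinophil genes, 7 lower, to 24267 to 30973 and 53059 to 54544, again CD117+ before CD117-. The 32 megakaryocyte and platelet genes overlapped, at 21863 to 28154 in CD117+ and 14535 to 26493 in CD117- cells, although 13 were higher and 4 lower. Their part in the other differences was not tested.

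Endothelial and stromal genes were divided, with 10 of 25 higher and 10 lower and sums of 5676 to 6432 in CD117+ and 6135 to 8918 in CD117- cells. The bone matrix genes Bglap (osteocalcin) and Col1a1 (type I collagen) were higher, Bglap by 1.82 ± 0.26 and Col1a1, above background on no CD117- array, at least 2.79-fold. Cxcl12, the stromal chemokine that holds stem cells in the marrow, was lower, at 10.06, 10.38 and 10.22 in CD117+ cells, against 11.85, 11.58 and 11.34 in CD117- cells. Adipoq, adiponectin of fat cells, was lower as well (-1.26 ± 0.16). Acta2 of the same list fell further than both (-5.16), although 1 of its 3 other probes was not called.

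Of 47 DNA replication genes 22 were higher and 0 lower, among them Pold2, a subunit of polymerase δ (1.17 ± 0.16), and Orc5 of the origin recognition complex (1.08 ± 0.12). Of 50 mitosis and spindle genes 2 were higher and 20 lower, which turned to 17 higher and 4 lower under median scaling. Cdc25b, a phosphatase that triggers mitosis, read 6.70, 6.87 and 6.36 in CD117+ cells, against 9.33, 9.41 and 9.61 in CD117- cells (-2.80 ± 0.19), and kept its direction there. The G1 list had 5 of 30 genes higher and 10 lower, and the BCL2 family 5 of 21 and 9, which turned to 12 and 5 and to 9 and 6 under median scaling. Cdk4, the G1 kinase, was higher by 1.28 ± 0.15 and its inhibitor Cdkn2d lower by 2.24 ± 0.19 on the log2 scale. In the BCL2 family, which sets the threshold for cell death, Bcl2l1 (BCL-XL) read 6.55, 6.89 and 6.76 in CD117+ cells, against 8.80, 9.45 and 10.26 in CD117- cells (-2.77 ± 0.28), and the mitophagy receptor Bnip3l 10.19, 10.27 and 10.32, against 11.94, 12.01 and 12.65 (-1.94 ± 0.16). Bcl2, another survival member, was higher by 1.22 ± 0.21, a call that was lost in the fits of the 6 arrays alone.

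Several of the largest increases were genes with no list. After Psmb1 came Csrp3, a muscle LIM protein, at 9.29, 9.25 and 9.46 in CD117+ cells, against 6.21, 5.31 and 5.56 in CD117- cells (3.64 ± 0.21), Acsl6, a long-chain acyl-CoA synthetase, at 8.31, 8.12 and 8.08, against 4.86, 4.33 and 4.53 (3.59 ± 0.15), and Mst1r, the receptor tyrosine kinase RON, at 8.63, 8.74 and 8.88, against 6.03, 4.72 and 4.86 (3.54 ± 0.25). Atp1b2, a sodium pump subunit, and Spon2, a secreted matrix protein, followed (3.52 ± 0.26 and 3.34 ± 0.25), though the second, dim probe of Spon2 did not move (-0.14). The CD117- arrays of these genes were at or near the dimmest detected signals or spread widely.

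The U and SCF arrays, a block of 6 that the authors normalised apart from the others in their own table, stood apart from both fractions on the first principal component, which held 57.3% of the variance (43.6 to 52.6, against -31.1 to -29.6 for CD117+ and -69.1 to -62.5 for CD117-). The part of this shift in the levels that follow was not tested. On the 3 other CD117+ arrays with U in the title, Acsl6 averaged 4.34, Mst1r 4.66 and Atp1b2 5.07, close to the CD117- arrays or below them, whereas Psmb1 averaged 11.42, Gata2 11.07 and Csrp3 9.10, close to the CD117+ arrays. Of the 15 largest increases the U mean lay nearer to the CD117+ mean for 6 genes and nearer to the CD117- mean for 9, and the SCF mean gave the same counts. Of the 15 largest decreases the U mean lay nearer to the CD117+ mean for 7 and nearer to the CD117- mean for 8, and the SCF mean nearer to the CD117+ mean for 4 and nearer to the CD117- mean for 11. Chil3 and Chil4, chitinase-like proteins with near-identical sequences, averaged 12.52 and 12.63 on the U arrays, as high as in CD117- cells, while Rsad2 averaged 6.66 there, as low as in CD117+ cells. The late granule genes summed to 33563 to 35392 on the U arrays, between both fractions, and the megakaryocyte and platelet genes to 112085 to 116585, above both.

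Some genes were above background in a single fraction, and since they were chosen for that, their calls are a description. Above background on all 3 CD117+ and no CD117- array were 305 genes, of which 248 were called higher, and above background on all 3 CD117- and no CD117+ array were 141 genes, of which 140 were called lower. The first set held small lower bounds: Zg16, a lectin of secretory granules, was at least 7.68-fold higher in CD117+ cells, Ccnb1ip1, a ubiquitin ligase of meiosis, at least 6.83-fold, Hpn, the membrane protease hepsin, at least 6.60-fold and Il31ra, the interleukin-31 receptor, at least 4.14-fold. The second held large ones: Orm1, an acute phase protein, was at least 41.7-fold lower in CD117+ cells, Ankrd22 at least 24.2-fold and Inhba, a chain of activin, at least 21.5-fold. The bound sets the mean of the fraction with signal against the dimmest detected signal on the other arrays.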

How the data were processed

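RNA of 12 samples was read on Illumina mouse bead arrays. The deposited intensity values are scanner summaries per probe, and the detection p-values deposited beside them compare each probe with negative controls on its array. A second deposited table holds intensity values that the authors quantile normalised, separately for the first and last 6 arrays, and it served as an alternative. Neither the array model nor the scanner software is given in the sources used here. Arrays have no read depth, and their small number sets the precision.

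Intensities were background corrected, quantile normalised and log2 transformed with neqc (limma 3.58.1 in R 4.3.3, offset 16). The filter asked for a detection p below 0.05 on 3 or more of the 12 arrays and left 20614 of 45281 probes, of which 17712 had 1 gene symbol in the platform annotation. Each of 11472 genes was represented by its brightest such probe. One limma model with 4 group means was fitted to all 12 arrays (8 residual degrees of freedom, eBayes with trend), and p-values were adjusted by Benjamini-Hochberg over all genes. The fit was tested on simulated data. Quantile normalization gives every array the same distribution, so a general shift in RNA cannot be seen. The fold of a gene undetected in 1 fraction is given as a bound.

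Members and lists were chosen with earlier results of these data known. Of each list the text names mainly the members with the largest called changes, and Ltf, Rag1, Rag2 and Dntt were taken out of transcription factor lists after values were seen, since they encode none. Gnl3, Ncl, Npm1, Rrn3, Imp4, Cd34, Mpo, Elane, Prss34, Tpsab1, Cma1, Mmp8, Orm1, Ccnb1ip1, Il31ra, Ankrd22 and Inhba lie outside that rule and were also chosen after their values were seen. Of 347 genes chosen by the rule, 150 had more than 1 detected probe, and in 43 another probe had a different call. Figures were drawn with matplotlib 3.10.9. Alternatives were other scaling, background, filters, probe summaries, sample sets, weights, a replicate block, a 1.5-fold threshold and leaving out each replicate.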

Additional observations from a re-analysis of the deposited data

Results flagged for a closer look

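Probes with no gene symbol in the platform annotation were used in no comparison above, and some of them differed between the fractions. Of 2902 such probes detected, 652 were higher and 535 lower in CD117+ cells at an adjusted p under 0.05 in the limma fit. Both shares were below those over all genes tested (29.6% higher and 21.3% lower), which are counted per gene by its brightest probe. The largest increase was 2.81 and the largest decrease -7.05 on the log2 scale. Their genes were not named here.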

How the results depend on the processing

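With median scaling 6001 genes were higher and 1024 lower in CD117+ cells, against 3398 and 2448. With a required change of more than 1.5-fold, 959 were higher and 1013 lower, and 33.7% of calls were kept, against 75.2% under median scaling. The other alternatives stayed within 1.5 times of the counts: leaving out a replicate gave 2943 to 3357 higher and 2142 to 2538 lower, and lists with a median above that of all genes numbered 27 to 30 of 71 there, against 28. Deviations from the group means showed no pairing by replicate number (correlations of same-numbered deviations -0.0267, -0.0805 and 0.0106). These values cannot show whether arrays of equal number share a mouse. With the replicate block 3326 genes were higher and 2423 lower, and 3139 and 2297 with the block in the 6 arrays alone. Under median scaling these genes changed sign: Hhex 0.15, Pcgf5 0.21, Asxl1 0.32, Mthfd2 0.23, Tomm34 0.39, Psme4 0.24, Prpf18 0.29 and Snrnp25 0.30. There the median relative to all genes turned to 0.00468 for erythroid transcription factors and -0.104 for mast cell and basophil genes, 2 of 7 lists that changed sign (the others were Notch, Wnt and hedgehog receptors at -0.0472, fatty acid and phospholipid synthesis at 0.00491, polyamine and arginine metabolism at -0.254, antioxidant and glutathione genes at 0.083 and endothelial and stromal genes at -0.228), and with no filter on dim probes the value for integrins, median relative to all genes, turned to 0.00281. The cause was not tested. Genes near the dimmest detected signal have the least certain folds.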
